A study of Mus musculus with 4 samples.

Results

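Clu, Cilp, Prg4 and 1500015O10Rik, together with Cilp2, Cytl1, Comp and Chil1, are secreted products of joint cartilage and its neighbouring tissues, and they make up 8 of the 31053 genes counted in the single-cell libraries of bone described here. They were chosen by symbol, with earlier results of the same data known, because most of them were lower in blood cells of unloaded mice than of control mice. That difference is therefore given as a description, and counts of genes called for it are printed beside the share of all genes called, with nothing read from them. The values come from barcodes with 1000 to 40000 unique molecular identifiers (UMIs, each marking 1 transcript molecule) and at most 10% mitochondrial UMIs. The questions were which cells of control bone make these transcripts, whether the same cells make several of them, and how large their level was in blood cells, which are not the known source of most of them.

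The 4 libraries come from wild-type C57BL/6J mice, 2 control mice (Ctrl) and 2 mice after hindlimb unloading by tail suspension for 28 days (HLU) that leaves no body weight on the hind limbs. Ctrl mice were housed alike without suspension, so no allele, transgene or drug separates the groups. The methods give mice of 8 weeks, whereas the deposited description names postnatal day 28, and this conflict was not settled. Tibiae and femurs were flushed of marrow with saline and digested with enzymes, and the cells entered droplets for 3′ counting (10x kit, version 3.1), so the joint surface and whatever marrow remained could both enter a library.

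The kept barcodes numbered 7340 and 7635 in Ctrl replicates 1 and 2, and 7757 and 9485 in HLU replicates 1 and 2, with a median of 3799 to 6294.5 UMIs. HLU replicate 2 stood apart in depth, with 99849070 UMIs in its file against 47819046 to 61296053 in the others, and in holding 267 barcodes under 1000 UMIs against 2143 to 2585. Any pair of libraries shared 13 to 21 barcode sequences. Clusters were named from fixed marker genes with the 8 genes left out. In the skeletal pool 7 sub-clusters, each with 9 to 11 raised markers of chondrocytes, the cells that build cartilage, form the chondrocyte-like class. Raised means at least 1 log2 unit above the 25th percentile over the sub-clusters. In sub-clusters 1, 3 and 9 none of these markers was among the 10 leading genes. At clustering resolutions of 0.5 and 2 the class took 21.8 and 19.3% of Ctrl replicate 1, not 27.1%. In Ctrl replicate 2 it took 17.7 and 18.0%, not 19.6%. Skeletal sub-clusters with a blood cell name were set apart as mixed, so no blood class holds them.

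Articular cartilage covers the bone ends at a joint. Its surface cells secrete Prg4, or lubricin, the boundary lubricant of the joint, which synovial lining cells also make. Deeper cells lay down type II collagen and aggrecan, and cells of the growth plate go on to make type X collagen. Comp is a pentameric thrombospondin that binds collagen in cartilage, tendon and ligament, and Cilp and Cilp2 are cartilage intermediate layer proteins. Clu, or clusterin, is a secreted chaperone made by many cell types. Cytl1 is a small secreted protein of cartilage, and 1500015O10Rik encodes augurin (Ecrg4), a small secreted protein. Chil1 is a chitinase-like glycoprotein of chondrocytes that neutrophils and macrophages also make.

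On GRCm38 (GENCODE M21) all 8 are protein-coding. 1500015O10Rik lies at chr1:43730602-43742578 on the plus strand with 4 exons, Chil1 at chr1:134182176-134190181 (plus, 10 exons) and Prg4 at chr1:150449412-150466165 (minus, 12 exons). Cilp lies at chr9:65265180-65280605 (plus, 10 exons), Clu at chr14:65968483-65981547 (plus, 9 exons) and Cytl1 at chr5:37735519-37739820 (plus, 4 exons). Cilp2, at chr8:69880369-69887687 (minus, 8 exons), and Comp, at chr8:70373558-70382066 (plus, 19 exons), share a chromosome arm but are not adjacent. Prg4 overlaps Tpr on the other strand and 1500015O10Rik overlaps the antisense gene Gm29155, and the strand setting of the counting is not given in the sources used here.

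The promoters of 4 of the genes are shown as examples of genes that shared the chondrocyte-like class as their main source in Ctrl, though not the same sub-clusters. RefSeq's table (GRCm38.p6) held 5 of the 8 genes, 1500015O10Rik under the name Ecrg4. The 250 bases before the RefSeq start are written 5′ to 3′ on the gene's strand, with capitals at matches to the motifs searched.
1500015O10Rik, chr1:43730352-43730601, plus strand: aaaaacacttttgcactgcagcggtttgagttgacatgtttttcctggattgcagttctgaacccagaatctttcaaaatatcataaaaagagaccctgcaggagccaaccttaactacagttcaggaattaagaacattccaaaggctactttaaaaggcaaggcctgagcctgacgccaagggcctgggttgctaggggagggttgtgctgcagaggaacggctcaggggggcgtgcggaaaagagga
Cilp, chr9:65264930-65265179, plus strand: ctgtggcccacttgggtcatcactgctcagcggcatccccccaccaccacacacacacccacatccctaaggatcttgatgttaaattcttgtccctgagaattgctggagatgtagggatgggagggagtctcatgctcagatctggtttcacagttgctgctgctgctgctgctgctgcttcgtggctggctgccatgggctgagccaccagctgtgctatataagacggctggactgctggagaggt
Cytl1, chr5:37735269-37735518, plus strand: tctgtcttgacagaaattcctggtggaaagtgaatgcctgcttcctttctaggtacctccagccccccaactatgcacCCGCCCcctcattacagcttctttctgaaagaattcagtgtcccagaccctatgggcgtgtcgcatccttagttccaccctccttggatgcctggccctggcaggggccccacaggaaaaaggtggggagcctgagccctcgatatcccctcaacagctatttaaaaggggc
Chil1, chr1:134181906-134182155, plus strand: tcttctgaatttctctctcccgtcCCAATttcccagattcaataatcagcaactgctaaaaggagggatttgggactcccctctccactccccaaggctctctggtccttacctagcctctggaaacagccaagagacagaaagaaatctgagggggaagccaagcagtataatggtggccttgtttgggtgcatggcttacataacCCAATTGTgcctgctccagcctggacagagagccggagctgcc

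Both strands were searched for 6 motifs. The motif TATAAA, which binds the basal machinery, stood in 12.4% of 32851 promoters of this length. The core of SOX factor sites, written ACAAT, stood in 27.7%, and the box bound by NF-Y, written CCAAT, in 33.8%. The AP-1 site TGANTCA was held by 6.75%, the PU.1 core AGGAAGT by 7.69% and the GC box GGGCGG by 32.7%. The Cytl1 promoter held a GC box with its first base 172 bases before the start. In Chil1, 2 NF-Y boxes lay 226 and 43 bases before the start, and a SOX core at 40 overlapped the nearer one. Cilp2, not printed, held a SOX core at 240 and GC boxes at 106 and 38, and no match was found for 1500015O10Rik or Cilp. No motif was thus held by all 5, and the letters are a description of the sequence, not of binding.

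In Ctrl the 8 genes were high in chondrocyte-like cells (1991 and 1495 barcodes in replicates 1 and 2, median depth 8889 and 10755 UMIs) and lower in every blood class. The blood level ranged widely, up to 22.8% of the chondrocyte-like level for Prg4 in T or NK cell-like cells of replicate 1 and 22.4% for 1500015O10Rik in basophil or mast cell-like cells of replicate 2. Levels are given as UMIs per 10000 UMIs of the class. Because a 3′ kit counts transcript ends, they are not scaled to length, and each gene is compared with itself. Prg4 stood at 161 and 229 in chondrocyte-like cells of Ctrl replicates 1 and 2, and at 5.66 and 6.91 in neutrophil-like cells (median depth 4230 and 3315.5 UMIs). 1500015O10Rik stood at 157 and 119.6 against 4.59 and 4.29. Clu stood at 95.2 and 63.2 against 5.91 and 2.84. For each of these genes the lower chondrocyte-like value lay above every neutrophil-, monocyte- and B cell-like value of both Ctrl libraries.

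The intermediate layer protein Cilp was sparser, at 14.2 and 17.0 in chondrocyte-like and 0.774 and 0.569 in neutrophil-like cells. Its relative Cilp2 was the least abundant of the 8, at 0.618 and 0.599 against 0.0224 and 0.0293. Cytl1 reached 76.3 and 81.5 against 1.85 and 2.12. The 2 Ctrl libraries were close for these genes. Comp stood at 47.7 and 35.5 against 2.01 and 1.70, and Chil1 at 63.6 and 118 against 2.54 and 5.01. Summed over the 8 genes, the level in Ctrl was 640 ± 34.1 (SD, n = 2) in chondrocyte-like and 23.4 ± 0.079 (SD, n = 2) in neutrophil-like cells. The latter was 14.9 without putative doublets and 13.3 without the 5% of barcodes richest in the 8 genes.

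**Figure D1:**
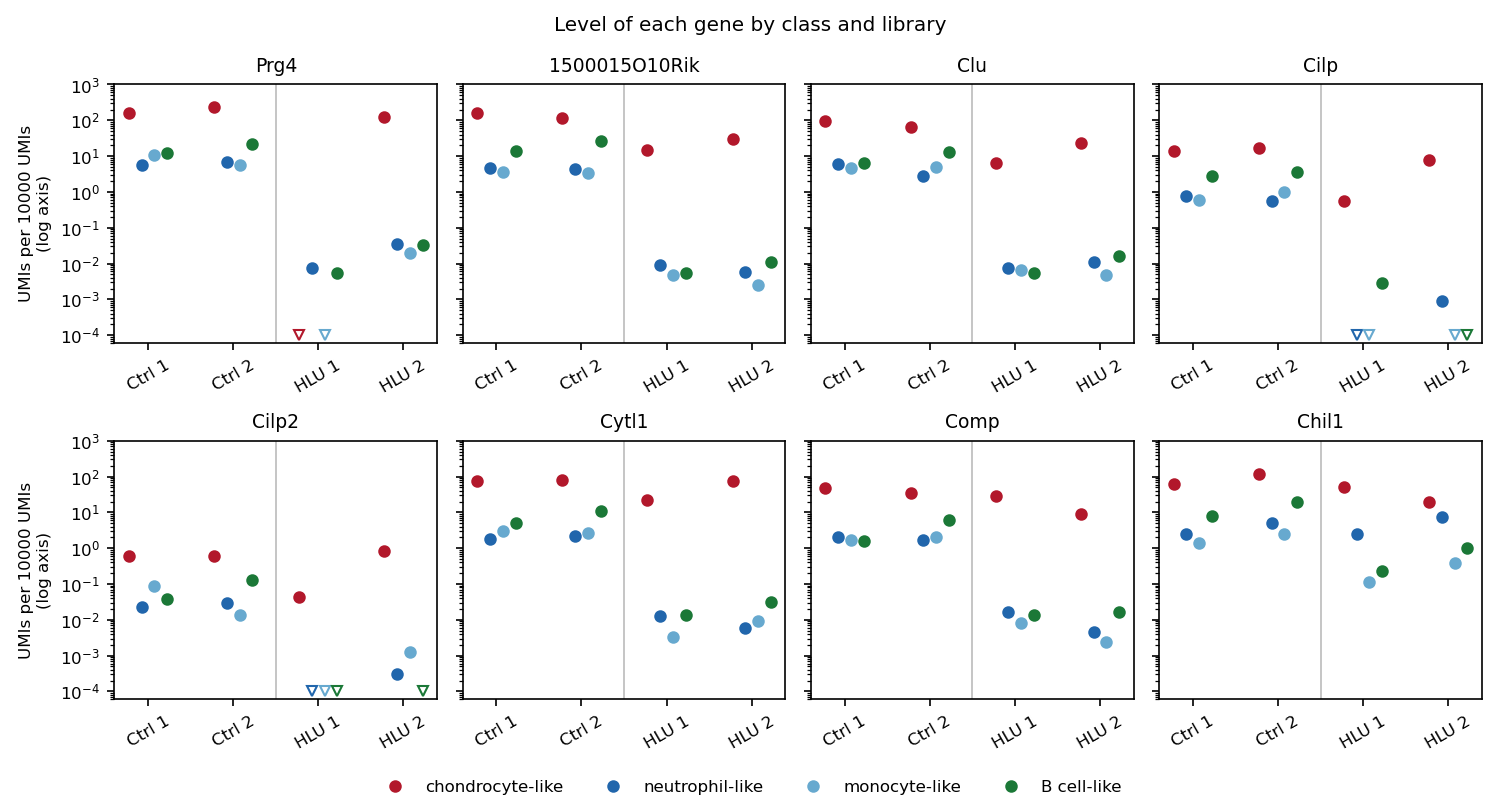
UMIs per 10000 UMIs on a log axis for each gene in each library (points; colours give the class; Ctrl left and HLU right of the grey line; open triangles at the lower edge are classes with no UMI of the gene). In Ctrl every gene is highest in chondrocyte-like cells among the 4 classes drawn. In HLU the neutrophil-, monocyte- and B cell-like points lie at 0.0344 or lower for all genes but Chil1, whose neutrophil-like level is 2.48 and 7.20.

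Of all UMIs of each gene in the Ctrl files, chondrocyte-like barcodes held 48.4 to 80.7% in replicate 1 and 43.3 to 78.9% in replicate 2 for every gene but Cilp2 (39.7 and 32.9%), while they held 34.4 and 28.6% of the UMIs of all genes. Chil1 and Cytl1 were the most confined to them (80.7 and 78.9%, and 77.0 and 76.8%). For Comp other skeletal barcodes, among them connective tissue-like and stromal-like cells, held about as much (44.0 and 44.1% against 48.4 and 43.3%). For Cilp2 they held the larger part (52.2 and 54.4%), with 27.4 and 19.4% of the UMIs of all genes. Blood-like barcodes held 1.51 to 2.52% of each gene in Ctrl replicate 1 and 2.54 to 5.45% in replicate 2, with 23.8 and 43.2% of the UMIs of all genes. The mixed barcodes (186 and 609) were counted in none of these parts. They held 3.58 to 4.68% of each gene in replicate 1 and 5.51 to 9.01% in replicate 2, with 3.52 and 4.69% of all UMIs. Their Prg4 level was 100 and 189 per 10000, so the blood-like shares depend on setting them apart.

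Within the skeletal pool the genes did not follow 1 pattern. Sub-clusters are described here by their number and leading genes, and since they were built from these same barcodes the values carry no test. 1500015O10Rik was highest in sub-cluster 3 (Serpina3n, Nos2), at 292 and 287 in Ctrl replicates 1 and 2. Clu was highest in sub-cluster 9 (Ackr2, Thbs1), at 198 and 208, which was also the peak of Cilp at 44.5 and 64.6. Comp and Cilp2 peaked together in sub-cluster 4 (Npy, Angptl7), at 121 and 139.6 and at 2.50 and 3.78, where 1500015O10Rik also reached 242 and 247. Sub-cluster 4 was left unnamed because too few markers of any type were raised there.

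Prg4 was high in 2 kinds of cells. Among chondrocyte-like sub-clusters it was high in 13 (Fxyd3, Col10a1), a group with type X collagen, at 566 and 398, and in 3 at 262 and 454. Sub-cluster 13 was thus the higher of these in Ctrl replicate 1 and sub-cluster 3 in Ctrl replicate 2. It was as high in sub-cluster 11 (Clic5, Col22a1; 115 and 72 barcodes), at 605 and 414. Sub-cluster 11 had no chondrocyte name, and the partner genes were near their blood-cell levels there, with Clu at 6.72 and 1.58, 1500015O10Rik at 6.92 and 1.34 and Chil1 at 1.47 and 1.42. Prg4 was thus the only 1 of the 8 with a level over 10 per 10000 in that sub-cluster in both Ctrl libraries. Clic5 and Col22a1 are known from synovial lining and from tissue junctions, and the sub-cluster was given no cell type.

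Cells with the strongest hyaline markers were not the main source. In sub-clusters 5 (Matn3, Col9a1) and 14 (Prkg2, Epyc), Prg4 stood at 12.1 and 6.09 and at 4.23 and 6.95, close to its neutrophil-like level of 5.66 and 6.91. Clu (4.23 to 9.49) and Cilp (0.791 to 1.13) were also low in them. Comp was an exception at 59.4 and 32.9 in sub-cluster 5 and 34.6 and 33.3 in sub-cluster 14, and so was Chil1 in sub-cluster 14 at 49.6 and 69.7. 1500015O10Rik in sub-cluster 14 also lay above its neutrophil-like level in both Ctrl libraries. Chil1 was higher in sub-clusters 3 (87.8 and 208), 7 (Omd, Frzb; 99.5 and 178) and 13 (64.0 and 177).

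**Figure D2:**
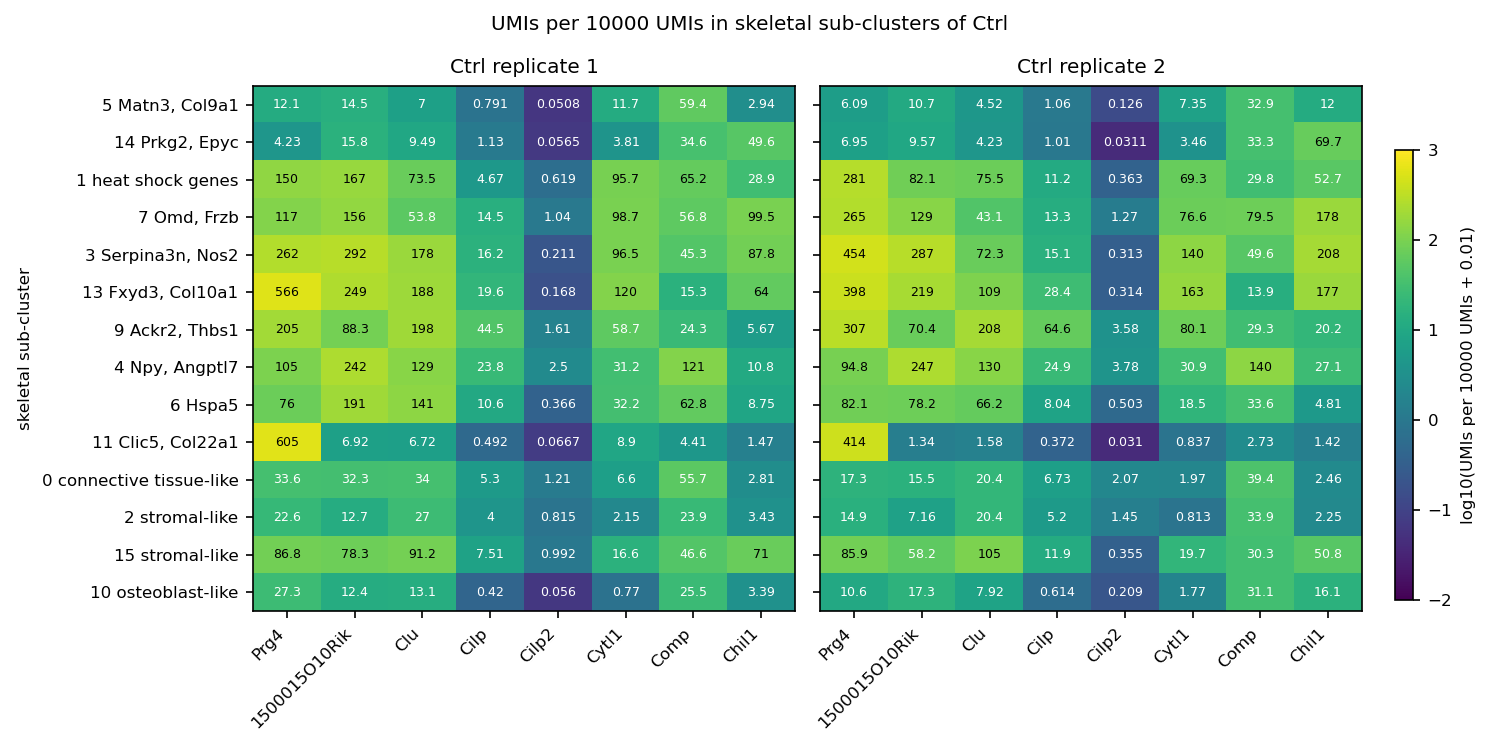
UMIs per 10000 UMIs of each gene (columns) in 14 skeletal sub-clusters (rows, with leading genes or class) of the 2 Ctrl libraries, coloured on a log10 scale. Prg4 is bright in sub-clusters 3, 11 and 13, Comp in sub-cluster 4 and Cilp in sub-cluster 9. In sub-clusters 5 and 14 Prg4, Clu and Cilp are darker than at their peaks, while Comp and, in 14, Chil1 stay bright.

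To compare detection at equal depth, each barcode was thinned to 1000 UMIs. A chondrocyte-like barcode then showed a median of 5 of the 8 genes in both Ctrl libraries, and 81.4 and 75.3% showed 4 or more. With at least 5 UMIs of a gene counted as high, 73.7 and 69.6% were high for 2 or more genes. The share was 84.3 and 93.3% in sub-clusters 1, 3, 7, 9 and 13, 12.6 and 11.1% in sub-clusters 5 and 14, and 1.12 and 1.16% in neutrophil-like barcodes. Most barcodes of sub-clusters 1, 3, 7, 9 and 13 were thus high for more than 1 of the genes, which does not show that any given pair went together.

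Clu and Prg4 were both high in 37.1 and 35.9% of chondrocyte-like barcodes of Ctrl, against 26.1 and 24.4% if they were independent. Within sub-clusters 1, 3, 7, 9 and 13 the excess was smaller, at 43.5 and 50.2% against 35.5 and 46.2%. Their Spearman correlation over the whole class of 1991 and 1495 barcodes was 0.53 and 0.57, and it was 0.40 and 0.25 within those sub-clusters and 0.09 and 0.09 within sub-clusters 5 and 14. Prg4 and Cytl1 had 0.48 and 0.58 over the class, and 0.39 and 0.24 within sub-clusters 1, 3, 7, 9 and 13. Of barcodes high for Cilp, 80.5 and 93% were also high for Prg4 and 82.3 and 81.4% for Clu. These shares were not set against the share of all barcodes high for Prg4 or Clu, so no link of the genes is read from them. The correlation of Prg4 with Comp was negative (-0.19 and -0.18), as was that of Cilp with Comp (-0.17 and -0.15). Within sub-clusters 1, 3, 7, 9 and 13 Prg4 with Comp stood at -0.21 and -0.24, Cilp with Chil1 at -0.07 and -0.17, and 1500015O10Rik with Clu at 0.11 and -0.02. All of these values are weak. The barcodes of a pair share their library, their depth after thinning and their sub-cluster structure, so these correlations are descriptions.

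Blood cells of Ctrl also carried UMIs of all 8 genes. At the thinned depth Prg4 was seen in 32.2 and 46.4% of neutrophil-like barcodes of Ctrl replicates 1 and 2, against 79.7 and 77.6% of chondrocyte-like ones (78.1 and 86.5% against 98.0 and 98.5% without thinning). Clu was seen in 25.3 and 25.4% and 1500015O10Rik in 27.4 and 25.2%. Shares of this size recurred in types that differ in origin. Clu was seen in 21.0 and 15.7% of monocyte-like and 26.5 and 22.8% of B cell-like barcodes. Few of these barcodes were high: for Clu 0.698 and 0.532% of neutrophil-like barcodes held at least 5 thinned UMIs, against 50 and 39.8% of chondrocyte-like ones.

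Part of the mean level in blood classes rested on few barcodes. In B cell-like cells of Ctrl replicate 2, where 1500015O10Rik reached 26.4, the 3 richest of 337 barcodes held 2026, 871 and 482 of its 4407 UMIs, and in them 4.90 to 6.32% of UMIs came from skeletal markers. The richest of them was called a doublet and the other two were not. In basophil or mast cell-like cells of that library 1 barcode of 108 held 2815 of 3034 UMIs. It had 33562 UMIs in all, 5.23% of them from skeletal markers, and was not called a doublet. Whether such barcodes hold 2 cells was not tested beyond the doublet caller.

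The 5% of barcodes richest in the 8 genes were next left out of each blood class. The barcodes were ranked by these same genes, so lower levels follow from the step itself. In Ctrl replicate 2 the blood classes then lay closer together for 1500015O10Rik, Prg4 and Clu than, in proportion, for Cilp, Cilp2 and Chil1. 1500015O10Rik then ran from 1.19 in neutrophil progenitor-like to 2.20 in B cell-like cells, which is 0.995 to 1.84% of its chondrocyte-like level. Prg4 ran from 2.36 to 5.23 (1.03 to 2.29%) and Clu from 1.21 to 2.29 (1.91 to 3.62%). Cilp ran from 0.185 to 0.730, Cilp2 from 0.00238 to 0.0281 and Chil1 from 1.38 to 4.20. In Ctrl replicate 1 the range of 1500015O10Rik was wider, from 1.70 in monocyte-like to 20.2 in T or NK cell-like cells, where 61 of 65 barcodes were left. The highest trimmed levels there were 14.9% of the chondrocyte-like level for Chil1, 12.9% for 1500015O10Rik, 6.79% for Prg4 and 5.55% for Clu. With all barcodes kept, B cell-like cells of Ctrl replicate 2 reached 22.1% for 1500015O10Rik, 9.39% for Prg4 and 21.3% for Clu.

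The 7 genes other than Chil1 stood in nearly the same ratio to each other in neutrophil-like and in skeletal cells of Ctrl replicate 2, but not in its smaller blood classes. Prg4 made up 38.6% of their UMIs in skeletal and 37.4% in neutrophil-like barcodes, 1500015O10Rik 22.9 and 23.3%, Clu 13.8 and 15.4%, Cytl1 11.9 and 11.5%, and Comp 9.46 and 9.22%. In monocyte-like barcodes of that library Clu made up 25% and Prg4 27.9%, in B cell-like ones 1500015O10Rik 32.0% and Prg4 26.0%, and in T or NK cell-like ones Cytl1 22.7% and Cilp 9.55%. In Ctrl replicate 1, Clu stood at 18.0% in skeletal and 28.4% in neutrophil-like barcodes, where 1 barcode held 28.1% of its UMIs, and Prg4 at 30% in skeletal and 43.7% in monocyte-like barcodes. The 2 HLU libraries differed from Ctrl and from each other in this mix. In HLU replicate 1 Comp led with 39.2% of skeletal and 31.4% of neutrophil-like UMIs (86 UMIs in all), while Prg4 had no skeletal UMI and 14% of the neutrophil-like ones. In HLU replicate 2 Prg4 led with 59.6 and 54.9% (206 neutrophil-like UMIs in all). Barcodes under 1000 UMIs, which are not cells by the filter, carried 1500015O10Rik at 101 and 59.7 per 10000 in Ctrl against 0.469 and 0.409 in HLU. Prg4 stood in them at 63.2 and 65.1 against 0.0505 and 4.60, and Clu at 55.3 and 33.2 against 0.159 and 2.45. In every library these levels lay above those of neutrophil-like cells, and what such barcodes hold was not tested.

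**Figure D3:**
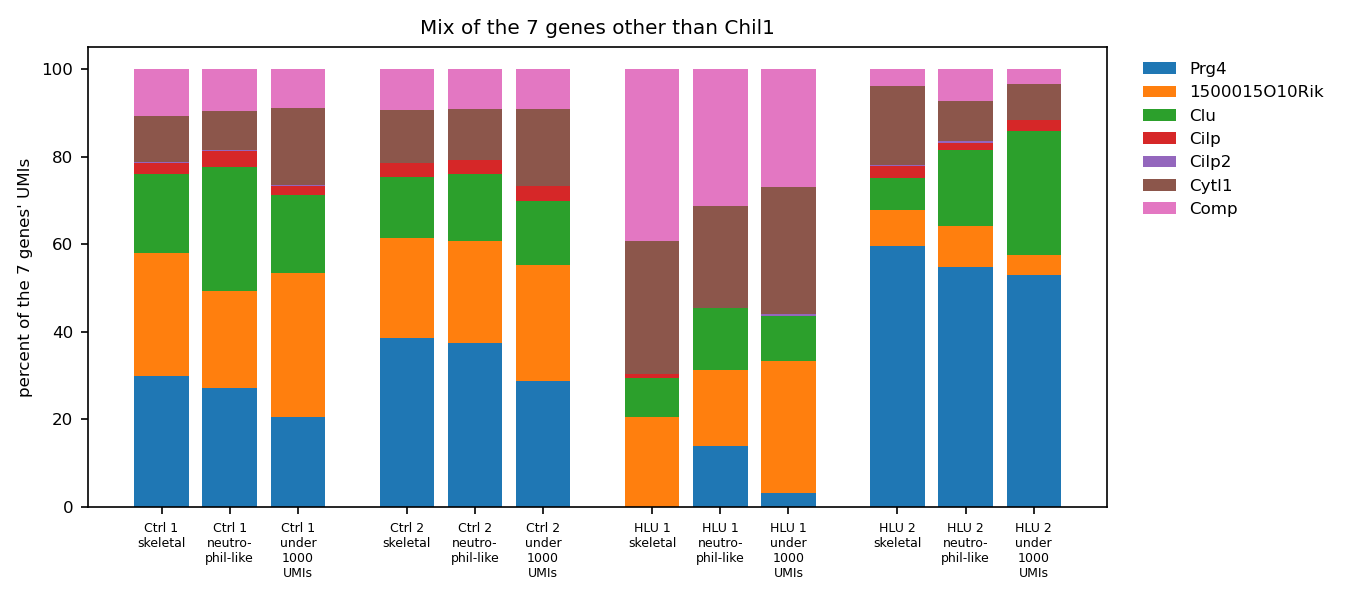
Share of the summed UMIs of 7 genes (Chil1 left out) taken by each gene, in percent, for skeletal barcodes, neutrophil-like barcodes and barcodes under 1000 UMIs of each library. The first 2 bars are alike in Ctrl replicate 2 (Prg4 38.6 and 37.4%), Clu departs in Ctrl replicate 1, and the mix differs between HLU replicate 1, led by Comp, and HLU replicate 2, led by Prg4.

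In HLU the level of the same genes was lower in neutrophil-, monocyte- and B cell-like cells. With Chil1 apart, the fitted log2 difference of each gene tested in these classes was -6.41 or lower. Other blood classes were not fitted. In neutrophil-like cells (1432, 3196, 4142 and 4802 barcodes in Ctrl replicates 1 and 2 and HLU replicates 1 and 2) 1500015O10Rik stood at 4.59, 4.29, 0.00938 and 0.00579. Prg4 stood at 5.66, 6.91, 0.00750 and 0.0344, and Clu at 5.91, 2.84, 0.00750 and 0.0110. All HLU values lay below all Ctrl values. Cilp had 0 UMIs in HLU replicate 1, which allows up to 0.00188 per 10000, and 3 UMIs in HLU replicate 2. The HLU values rest on 12 to 113 UMIs for these 3 more abundant genes, and intervals and limits of this kind cover counting error only.

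The fitted log2 difference of HLU from Ctrl in neutrophil-like cells was -9.05 (SE 0.47) for 1500015O10Rik, -8.66 (SE 0.70) for Clu, -7.94 (SE 0.99) for Prg4, -7.65 (SE 0.50) for Cytl1 and -7.37 (SE 0.70) for Comp. Of the 11123 genes tested in this class with edgeR's quasi-likelihood test, 91 were called, all lower in HLU, which is 0.818%, and 6 of the 8 genes were among them. In monocyte-like cells 0.254% of 10619 genes were called and 5 of 7 tested. In B cell-like cells 2.43% of 9149 genes were called, 2.24% as lower, and 7 of 7 tested. Because the genes were chosen for this very difference, nothing is read from these counts. They also vary with 1 library: without HLU replicate 1 the calls over all genes numbered 1786, 3515 and 1677 in the 3 classes, and without Ctrl replicate 2 they numbered 29, 78 and 92. With putative doublets removed 3 of 8, 3 of 7 and 7 of 7 were called, among 7, 11 and 138 genes.

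**Figure D4:**
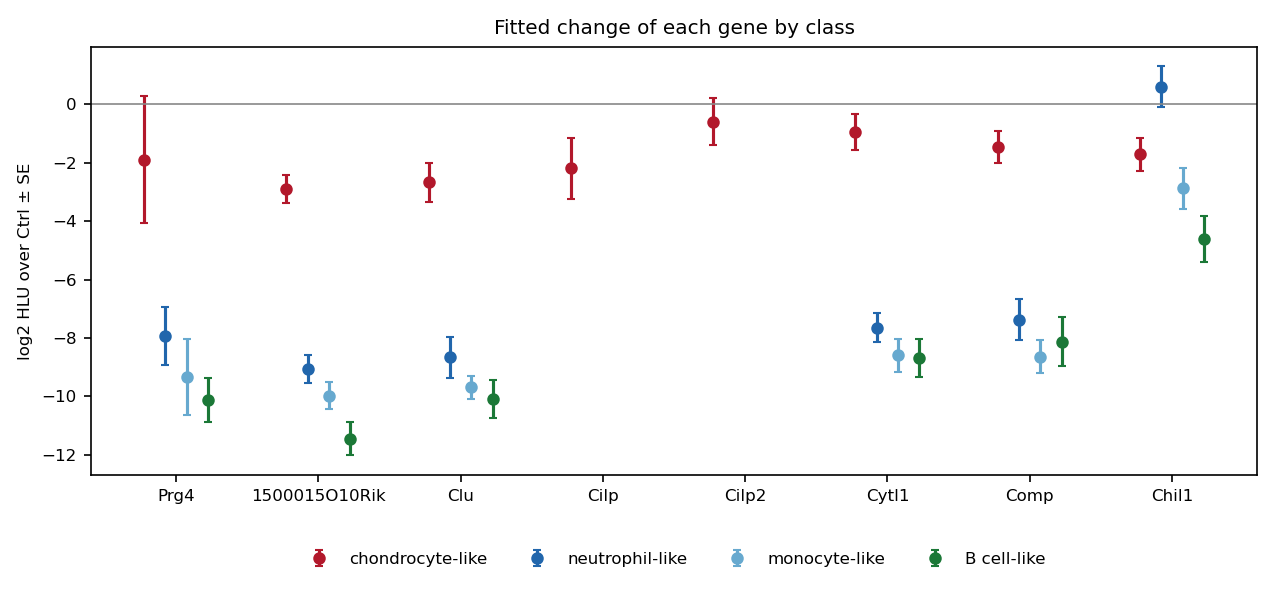
Fitted log2 difference of HLU from Ctrl (points, with bars of 1 SE from edgeR over 4 libraries) for each gene and class, with genes of no more than 3 UMIs in HLU left out. The chondrocyte-like points lie between -2.90 and -0.59, and the blood points below -7 for all genes but Chil1, which is at 0.60 in neutrophil-like, -2.89 in monocyte-like and -4.61 in B cell-like cells.

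Chil1 departed from the others in neutrophils. Its neutrophil-like level was 2.54 and 5.01 in Ctrl and 2.48 and 7.20 in HLU, so the groups overlapped. The fitted log2 difference was 0.60 (SE 0.69), and it turned to -0.57 (SE 0.43) without HLU replicate 2. In monocyte-like cells Chil1 shared the direction of the other genes but not the size, at 1.39 and 2.56 in Ctrl and 0.115 and 0.388 in HLU. Its log2 difference there was -2.89, against -8.58 or lower for the other genes tested. In B cell-like cells Chil1 stood at 7.97 and 19.6 against 0.226 and 1.01. Its log2 difference there was -4.61, against -8.12 or lower for the others tested.

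In the HLU libraries, where the other 7 genes were near 0 in blood cells, Chil1 separated the blood types. At 1000 UMIs it was seen in 16.8 and 49.1% of neutrophil-like barcodes of HLU replicates 1 and 2, in 0.652 and 3.40% of monocyte-like and in 0.955 and 3.47% of B cell-like barcodes. Without thinning the shares were 39.4 and 87.4% of neutrophil-like and 7.64 and 8.30% of B cell-like barcodes (median depth of the neutrophil-like barcodes 3007 and 5234 UMIs, of the B cell-like 3709 and 2652). In Ctrl this contrast was smaller, with 19.6 and 38.5% of neutrophil-like against 16.5 and 26.7% of B cell-like barcodes. Neutrophil-like cells thus carried Chil1 beyond the level of monocyte- and B cell-like cells in HLU. Other barcodes stood nearer to their 2.48 and 7.20 per 10000. Neutrophil progenitor-like cells had 1.63 and 1.12, and unnamed barcodes outside the skeletal pool 1.96 and 3.41, in HLU replicates 1 and 2. Blood-like barcodes held 45 and 77.8% of all Chil1 UMIs there, against 2.40 and 5.45% in Ctrl, while their share of the UMIs of all genes was 73.0 and 72.4% in HLU and 23.8 and 43.2% in Ctrl.

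Among the neutrophil-like clusters of HLU replicate 2, Chil1 was highest in a cluster led by Gm5483, Gdap10 and Il1f9, at 11 per 10000. A cluster led by the secondary granule gene Ltf had 8.33, and the progenitor cluster led by Elane, Ctsg and Mpo, genes of primary granules, had 1.12. In HLU replicate 1 the Ltf cluster had 3.46, a cluster led by Retnlg 3.30, and the progenitor clusters had 2.04 and 0.326. Clu also had a small source among blood cells. In the 43 megakaryocyte-like barcodes of HLU replicate 2 it reached 1.01 per 10000, with 64 UMIs in 10 barcodes whose 3 richest had no UMI of a skeletal marker and included 1 putative doublet, against 0.0110 in neutrophil-like cells. No other library had a megakaryocyte-like class.

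**Figure D5:**
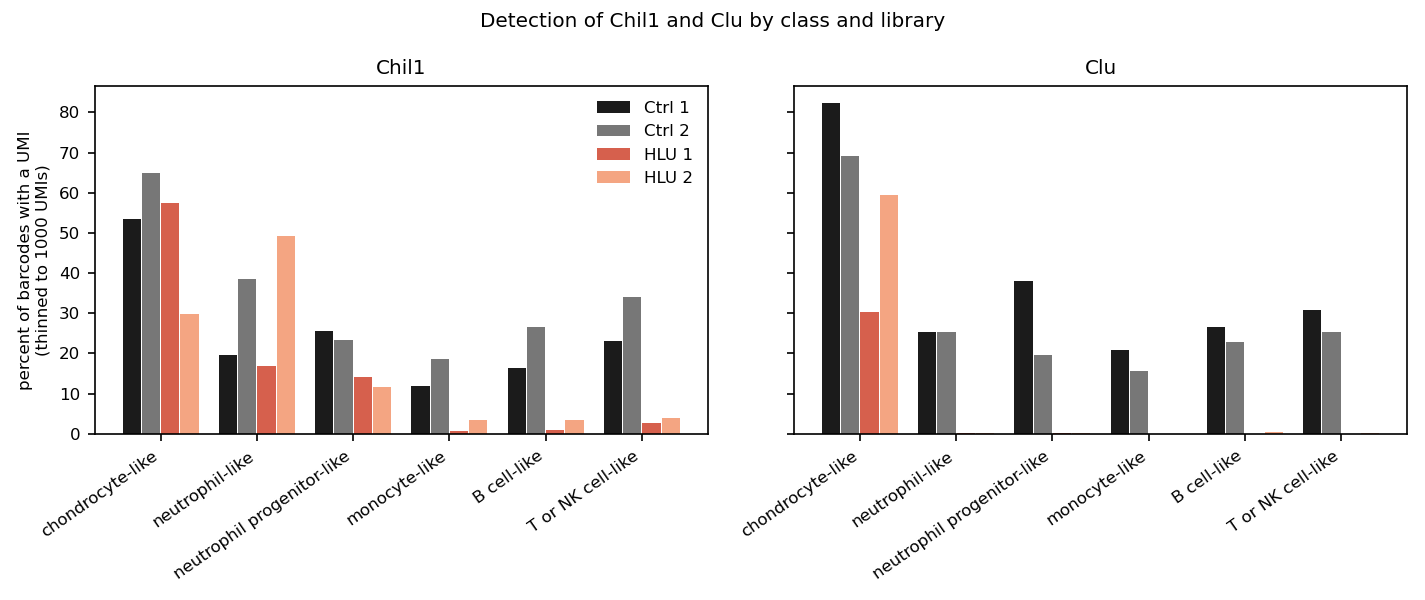
Percent of barcodes with a UMI of Chil1 (left) or Clu (right) after thinning to 1000 UMIs, for 6 classes (groups of bars) in the 4 libraries (colours). Clu is at or near 0 in all blood classes of HLU, whereas Chil1 is seen in 16.8 and 49.1% of neutrophil-like barcodes there.

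The source cells themselves were few in HLU. Chondrocyte-like barcodes made up 27.1 and 19.6% of the kept barcodes in Ctrl (exact 95% binomial intervals 26.1 to 28.2% and 18.7 to 20.5%), and 0.425 and 0.780% in HLU (0.293 to 0.597% and 0.613 to 0.978%). These intervals cover counting error only, and those of the 2 libraries of a group did not overlap. The difference of -22.8 percentage points had p = 0.33 in a two-sided exact permutation test, the smallest that 2 against 2 libraries allow. The flushing and digestion of each bone set which cells entered a library, and their part in this share was not tested.

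Totals of a gene in a library cannot tell fewer source cells from less RNA in each, so the level within chondrocyte-like cells was compared by itself. The choice of the genes from blood cells did not use these values directly. It was made with earlier results of the same data known, so this comparison is not independent of that choice. The 33 chondrocyte-like barcodes of HLU replicate 1 came from sub-clusters 5 (9), 14 (22) and 1 (2), and the 74 of HLU replicate 2 mostly from 3 (30) and 14 (30), whereas in Ctrl sub-clusters 1, 3, 7, 9 and 13 held most. Of 12160 genes tested with edgeR's quasi-likelihood test, 0.00822% were called at a Benjamini-Hochberg adjusted p under 0.05, and none of the 8. At an unadjusted p under 0.05 there were 1704 genes, and DESeq2 called 181. Without the filter on low counts edgeR called 816 genes, 6 of the 8 among them (not Cilp2 or Cytl1). The 1 gene called was Gas1 (log2 difference -5.79, SE 0.37, edgeR adjusted p = 0.036), a membrane protein that binds hedgehog ligands and is named only after its value was seen. Gas1 was among the 10 leading genes of sub-cluster 9. That sub-cluster held 241 and 150 barcodes in Ctrl replicates 1 and 2, and 0 and 5 in HLU replicates 1 and 2. The part of this makeup in the Gas1 difference was not tested.

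1500015O10Rik stood at 157 and 119.6 in Ctrl and 14.8 and 30.2 in HLU chondrocyte-like cells. The log2 difference was -2.90 (SE 0.49, edgeR adjusted p = 0.211). Clu stood at 95.2 and 63.2 against 6.56 and 23.4, a log2 difference of -2.67 (SE 0.67, edgeR adjusted p = 0.286). The groups did not overlap for either gene, and DESeq2 called both (adjusted p = 4.741e-06 and 0.01078). These 2 genes had the lowest p-values of the 8 before adjustment, 0.000904 and 0.00647 in edgeR.

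Prg4 differed most between the HLU libraries. It stood at 161 and 229 in Ctrl, at 0 UMIs in the 33 barcodes of HLU replicate 1, which allows up to 0.0631 per 10000, and at 126 in HLU replicate 2. The log2 difference was -1.90 with an SE of 2.18 (edgeR adjusted p = 0.728). Cilp showed the same split, with 14.2 and 17.0 in the Ctrl libraries against 0.547 and 7.59 in HLU replicates 1 and 2 (log2 difference -2.20, SE 1.03, edgeR adjusted p = 0.389). Of the 33 barcodes of HLU replicate 1, 31 lay in sub-clusters 5 and 14, where Prg4 and Cilp were also low in Ctrl. The whole-class Ctrl values are therefore not from the same makeup of cells. Without HLU replicate 2, edgeR called Cilp (adjusted p = 0.0424) and Prg4 (adjusted p = 0.0318), a fit that assumes the lone HLU library to vary like Ctrl. Without HLU replicate 1, none of the 8 was called.

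For Comp (47.7 and 35.5 in Ctrl, 28.3 and 9.14 in HLU) and Chil1 (63.6 and 118 against 50.4 and 18.9) the groups lay apart by less. Their log2 differences were -1.47 (SE 0.55, edgeR adjusted p = 0.33) and -1.72 (SE 0.57, edgeR adjusted p = 0.308). Cytl1 was at 22.0 in HLU replicate 1, of which 1 barcode held 48.6%, and at 76.6 in HLU replicate 2, inside the Ctrl range of 76.3 to 81.5. Its log2 difference was -0.96 (SE 0.61, edgeR adjusted p = 0.516). Cilp2 was at 0.618 and 0.599 in Ctrl and 0.0421 and 0.857 in HLU, a log2 difference of -0.59 (SE 0.80, edgeR adjusted p = 0.768) that turned to 0.21 without HLU replicate 1. An adjusted p above the threshold with 2 libraries a group does not show that levels were equal.

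Since the sub-clusters differed in makeup, sub-cluster 14 was also compared by itself. It was the only chondrocyte-like sub-cluster with at least 10 barcodes in every library (164, 285, 22 and 30). 1500015O10Rik stood there at 15.8 and 9.57 in the Ctrl and 14.6 and 1.69 in the HLU libraries (log2 difference -0.79, SE 0.83, edgeR adjusted p = 0.821). Its difference over the whole class was -2.90. Prg4 stood at 4.23 and 6.95 in Ctrl, close to Ctrl neutrophil-like cells, and at 0 and 0.026 in HLU. Cytl1 stood at 3.81 and 3.46 against 3.77 and 29.5, which turned its difference to 2.01 (SE 0.82, edgeR adjusted p = 0.701). None of the 7 genes tested in sub-cluster 14 was called by edgeR, of 8618 genes tested, 595 of which had an unadjusted p under 0.05. In sub-cluster 3, present in HLU only in replicate 2 (30 barcodes), 1500015O10Rik stood at 42.5 against 292 and 287 in Ctrl, Clu at 45.2 against 178 and 72.3, and Cytl1 at 80.4 against 96.5 and 139.9.

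Outside the chondrocyte-like class, HLU replicate 1 held 250 Prg4 UMIs in its whole file. Of these, 210 lay in 14 of the 447 barcodes of an unnamed cluster led by Col1a2, Col1a1 and Fstl1, genes of bone and connective tissue matrix, with a median depth of 1433 UMIs. In HLU replicate 2, with 33918 Prg4 UMIs, sub-cluster 11 again stood out, at 828 per 10000 in 14 barcodes, of which 42.9% were high at the thinned depth. In those 14 barcodes Clu stood at 0.425 and Chil1 at 0.170, and 1500015O10Rik, Cytl1, Cilp and Comp had no UMI.

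Companion genes of cartilage, taken from 2 fixed lists, were measured in the same chondrocyte-like cells. Of 17 hyaline cartilage genes tested 0 were called by edgeR in either direction, and of 16 genes of the articular surface, synovium and ligament 0. The hyaline list had a median log2 difference of -0.49 and the surface list of -1.12, beside -0.06 over all genes tested. Many hyaline genes, Acan, Col2a1 and Col10a1 among them, were also markers used to name the chondrocyte-like class. Fmod, Thbs4 and Ogn of the surface list were markers of the connective tissue-like class. The class was thus partly chosen by these genes, so nothing is read from these counts and medians. Chad, a leucine-rich matrix protein, stood at 91.9 and 63.5 in Ctrl and 67 and 43.1 in HLU (log2 difference -0.80, SE 0.38). Col2a1, the main collagen of cartilage, stood at 38.8 and 56.8 against 67.7 and 17.8. Col10a1, the collagen of hypertrophic cartilage, stood at 26.8 and 33.7 against 11 and 13.7, with groups that did not overlap (log2 difference -1.59, SE 0.36, edgeR adjusted p = 0.267).

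Of the surface list, the matricellular gene Thbs1 stood at 6.67 and 5.0 in Ctrl against 4.14 and 9.32 in HLU. The protease gene Htra1 stood at 4.85 and 4.03 against 2.25 and 2.34 (log2 difference -1.25, SE 0.29, edgeR adjusted p = 0.276). Fmod, which binds collagen fibrils, stood at 2.57 and 3.1 against 2.92 and 0.983. In neutrophil-like cells 7 of 15 hyaline and 3 of 15 surface genes tested were called as lower in HLU, in monocyte-like cells 4 of 14 and 0 of 9, and in B cell-like cells 12 of 13 and 4 of 7, against 0.818, 0.254 and 2.24% of all genes. These lists were chosen with earlier results known, so nothing is read from the counts. Cd44 (log2 difference 0.61, SE 0.39), Thbs1 (-0.45, SE 0.67) and Erg (0.16, SE 0.62) of the surface list were not called in neutrophil-like cells. In Ctrl neutrophil-like cells Thbs1 stood at 20.7 and 38.8 and Cd44 at 3.16 and 3.62. Both were thus higher there than in Ctrl chondrocyte-like cells, where Cd44 stood at 1.93 and 2.08. Erg was lower, at 0.0448 and 0.0521 against 0.0763 and 0.101.

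Genes with the most similar pattern were those whose log2(UMIs per 1000000 + 1) correlated best across the 19 clusters of Ctrl replicate 1, with r across the 20 clusters of Ctrl replicate 2 given after it. The clusters share a library and were built from many of these genes, so r is a description. For Clu these were D630045J12Rik (0.95 and 0.88), the prolyl 3-hydroxylase gene P3h2 (0.94 and 0.92) and Serpine2, a protease inhibitor (0.94 and 0.92). For 1500015O10Rik they were Serpine2 (0.93 and 0.84), Chad (0.93 and 0.86) and the retinol carrier Rbp4 (0.92 and 0.85). Prg4 was followed by Creb5 (0.91 and 0.84), a transcription factor of the joint surface, Dusp14 (0.89 and 0.85) and Htra4 (0.88 and 0.92).

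Cilp was most like Tnfrsf11b (0.93 and 0.80), which encodes osteoprotegerin, Galnt15 (0.90 and 0.89) and Cyp26b1 (0.90 and 0.81), which degrades retinoic acid. Comp was most like Pdgfrl (0.95 and 0.86), Fibin (0.94 and 0.85) and Cst3 (0.94 and 0.86). Cytl1 was most like Fxyd3 (0.93 and 0.82) and the Wnt antagonists Frzb (0.91 and 0.80) and Wif1 (0.89 and 0.84). Chil1 was most like Lmo7 (0.94 and 0.84), the metal transporter Slc39a8 (0.94 and 0.93) and Hhipl2 (0.93 and 0.84). All 21 entries had a high r in the second Ctrl library too, and Serpine2 was the 1 gene named for 2 of the 8. The clusters of both libraries divide blood from skeletal cells, and the r of skeletal genes in general was not measured. The second r is therefore not read as support.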

How the data were processed

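Single-cell RNA sequencing of bone from 2 Ctrl and 2 HLU mice was used. The authors made UMI counts with Cell Ranger 6.0.0 on mm10 and deposited raw counts per gene and barcode, with no normalization. No other filter than the UMI and mitochondrial limits was applied, and putative doublets (Scrublet in scanpy 1.11.5) were kept and left out only as an alternative. Each library was clustered separately (2000 variable genes, 50 components, resolution 1), and skeletal barcodes were then pooled and clustered again. The thresholds for naming clusters were set after the clusters were seen. The 8 genes, the gene lists and the classes were chosen with earlier results of these data known. All 8 genes were named, with the 3 genes most like each of 7 of them and the 3 most abundant of each list. UMIs were summed per library and class and tested with edgeR 4.0.16 (TMM factors, filterByExpr, quasi-likelihood, Benjamini-Hochberg over all genes), or DESeq2 1.42.0. Nothing states that libraries pool animals, and p-values measure the spread between libraries. On simulated counts for the chondrocyte-like comparison edgeR called 70% of 50 genes with a log2 change of -2 and 100% with -3. The simulation gave every gene the same fixed spread in both groups and changed only genes above a minimum expected count. These shares are therefore not the power reached in the real libraries. Trimmed levels and sub-cluster 14 alone were added after the data were seen. Intervals are exact 95%, and limits at 0 use 3 counts.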

Additional observations from a re-analysis of the deposited data

How the results depend on the processing

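The number of genes called depended on the processing. In neutrophil-like cells (91 genes) it was 458 with DESeq2, 377 without a filter on low counts, 450 with Seurat integration and 7 with doublets removed. In monocyte-like cells (27) it was 229, 747, 15 and 11, in B cell-like cells (222) 627 without the filter, 1638 with Seurat and 138 without doublets, and in chondrocyte-like cells (1) 181 with DESeq2, 816 without the filter, 0 with Seurat and 0 in sub-cluster 14 alone. Leaving out each library in turn gave 29 to 1786, 69 to 3515, 92 to 1677 and 9 to 19. Same-numbered libraries deviated together with r = 0.229, 0.126, 0.042 and -0.101, so the numbers were not taken as pairs. With the replicate block 299, 59, 354 and 8 genes were called. The direction of a gene turned in 3 fits: Chil1 in neutrophil-like cells (-0.57 without HLU replicate 2, 1.24 without HLU replicate 1), Cilp2 in chondrocyte-like cells (0.21 without HLU replicate 1, -4.20 without HLU replicate 2) and Cytl1 in sub-cluster 14 (2.01). The cause was not tested. The other fits kept the direction, 79 of 80, 70 of 70, 70 of 70 and 85 of 87 in neutrophil-, monocyte-, B cell- and chondrocyte-like cells. The summed level in neutrophil-like cells of Ctrl, 23.4, was 19.9 with Seurat, 24.3 and 22.8 at resolutions of 0.5 and 2, 14.9 without doublets and 13.3 without the 5% richest barcodes. The median log2 difference over all genes in chondrocyte-like cells, -0.06, moved to 0.24 with DESeq2 and -0.41 without the filter. The HLU chondrocyte-like values rest on 33 and 74 barcodes that differ in sub-cluster makeup, with median depths of 13483 and 10419.5 UMIs. Which of these limits the values was not tested.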
